A study of Homo sapiens with 11 samples.

Results

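The unfolded protein response and the protein-folding machinery of the endoplasmic reticulum (ER) were described here through 34 genes. They were chosen as a list of symbols and found in the deposited count table by their external gene name. The choice was made with earlier results of these data known, so shares of members called beside shares of all genes only describe the list. All 34 were found among 78932 gene rows, and 33 of them were among the 18245 genes with enough counts to be tested. The remaining gene, DERL3, had too few counts. By role, 7 members were sensors, transcription factors and regulators, 12 worked in folding, 10 in degradation and 5 in translocation and export.

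The libraries came from engineered myometrial microtissues (EMMIs), small tissues that the study built to quantify contraction in response to oxytocin. They were formed from hTERT-HM, a human myometrial line immortalised with telomerase, so every library came from a single line, which the labels give as wild type (WT). Formation took 6 days. Polyadenylated RNA was sequenced from 3 libraries of day 1, 4 of day 3 and 4 of day 6, and day was the only labelled difference, with no drug or other agent named. The labels number the replicates without saying that they were separate cultures. The p-values set each change between days against the spread of these samples within a day, and that spread may be only technical.

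Proteins that enter the ER are threaded through the Sec61 channel, folded by chaperones, joined by disulfide bonds and given sugars. Those that fail to fold are pulled back to the cytosol and degraded. When unfolded proteins build up, sensors in the ER membrane slow translation and raise transcription of genes for folding, degradation and export. IRE1, encoded by ERN1, splices the messenger RNA of XBP1 into the form that encodes an active transcription factor, PERK (EIF2AK3) phosphorylates the translation factor eIF2α, and ATF6 is cut in the Golgi to release a transcription factor. Counts per gene do not separate spliced from unspliced XBP1, and they measure neither phosphorylation nor cleavage. In bulk RNA, fewer cells of a type and less RNA per cell cannot be told apart.

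Library totals were 28.07 to 33.02 M counts (M, 1e+06) and mitochondrial genes took 2.5 to 4.14% of them. Levels are given as CPM, counts scaled to 1e+06 per library after TMM factors, which ran from 0.928 to 1.12, the 4 highest on day 6. Of the markers of the labelled cell type, ACTA2 ran from 30.4 to 213 CPM and TAGLN from 192 to 822 CPM. The late smooth muscle markers were low, with DES at no more than 2 counts in a library and MYH11 at 0.701 to 1.91 CPM, up to 57 counts. PTPRC, which marks leukocytes, reached 1 count, and EPCAM and CDH1, which mark epithelium, reached 2 and 3 counts, but the epithelial keratins KRT8 and KRT18 were at 17.2 to 38.2 and 10.3 to 13.6 CPM. Of the endothelial markers PECAM1 was at 25.4 to 34.1 CPM, CDH5 reached 8 counts and VWF 20. Stromal markers did not move as 1 group: DCN averaged 2940.4, 2187 and 1849 CPM on days 1, 3 and 6, LUM 45.1, 72.4 and 67.4, and PDGFRA 269, 322 and 228. Mean ACTA2 was 41.7, 63.5 and 204 CPM. TAGLN averaged 261, 300 and 715 CPM and CNN1 18.4, 21.4 and 56.7, also higher on each later day. MYLK averaged 26.0, 21.2 and 52.7 CPM and CALD1 448, 360 and 622, both lower on day 3 than on day 1. Whether these shifts have any part in the results on the ER genes was not tested.

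The promoters of several members carry the elements through which the response is known to act, and they are shown as description. Of the 12 genes that hold them, 11 were called from day 1 to day 6, TXNDC5 being the exception. So were 31 of all 33 tested members, a similar share, beside 18.7% of all genes called lower and 21.3% called higher. The count of 11 therefore does not set the genes with these elements apart from the other members. ERSE, the ER stress response element, is CCAAT, any 9 bases and CCACG, and is bound by NF-Y together with ATF6 or XBP1. ERSE-II is ATTGG, any 1 base and CCACG. The core of the UPRE, an element bound by XBP1 and ATF6, is TGACGTG. RefSeq promoter windows (GRCh38.p14) of 300 bases, 250 before the gene's start and 50 from it on, were found by symbol for 30 members, and PDIA3, DERL1, DERL3 and SEC24D had none. Both strands were searched. The 6 members with an ERSE follow, 5′ to 3′ on the gene's strand, with the match in capitals and up to 20 flanking bases. A match on the opposite strand reads as CGTGG first.
XBP1, chr22:28800583-28800641, minus strand: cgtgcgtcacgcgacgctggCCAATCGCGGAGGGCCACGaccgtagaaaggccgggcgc
CANX, chr5:179698758-179698816, plus strand: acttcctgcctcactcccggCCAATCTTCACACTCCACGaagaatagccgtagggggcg
PDIA6, chr2:10812833-10812891, minus strand: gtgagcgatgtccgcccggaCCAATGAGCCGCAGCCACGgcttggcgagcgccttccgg
ERO1B, chr1:236282163-236282208, minus strand: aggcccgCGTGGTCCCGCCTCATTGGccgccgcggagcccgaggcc
CALR, chr19:12938364-12938422, plus strand: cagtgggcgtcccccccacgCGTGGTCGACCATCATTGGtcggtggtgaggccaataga
CRELD2, chr22:49918534-49918592, plus strand: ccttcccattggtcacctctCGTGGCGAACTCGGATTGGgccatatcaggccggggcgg

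The 3 members with ERSE-II were HERPUD1, SDF2L1 and HYOU1. HYOU1 held the element at 2 places, so its whole window is printed to show them together.
HERPUD1, chr16:56932005-56932055, plus strand: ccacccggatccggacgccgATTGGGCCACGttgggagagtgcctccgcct
SDF2L1, chr22:21642094-21642144, plus strand: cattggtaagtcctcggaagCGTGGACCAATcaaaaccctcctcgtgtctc
HYOU1, chr11:119057156-119057455, minus strand: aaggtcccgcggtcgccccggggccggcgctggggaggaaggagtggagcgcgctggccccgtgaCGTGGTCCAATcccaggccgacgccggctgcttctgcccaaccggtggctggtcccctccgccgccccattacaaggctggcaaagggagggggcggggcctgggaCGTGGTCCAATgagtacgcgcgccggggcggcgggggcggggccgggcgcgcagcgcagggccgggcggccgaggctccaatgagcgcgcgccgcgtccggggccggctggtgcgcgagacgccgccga

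A UPRE core was found in 4 members, SEC61A1, SSR3, TXNDC5 and HYOU1, and the HYOU1 core overlaps the upstream ERSE-II match printed above. The other 3 cores were as follows.
SEC61A1, chr3:128052416-128052462, plus strand: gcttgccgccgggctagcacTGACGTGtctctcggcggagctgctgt
SSR3, chr3:156554139-156554185, minus strand: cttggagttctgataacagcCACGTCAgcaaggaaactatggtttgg
TXNDC5, chr6:7910143-7910189, minus strand: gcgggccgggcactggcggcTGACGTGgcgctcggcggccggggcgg

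ERSE was present in 20% of the 30 members with a window and in 0.0916% of all 27305 genes with one. The shares were 10% and 0.0696% for ERSE-II and 13.3% and 2.40% for the UPRE core. Several of these genes are textbook examples of the elements, so the shares describe the list and are no result of these libraries. A match is a run of letters and no evidence of binding, and a window without a match says nothing about a factor.

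**Figure D1:**
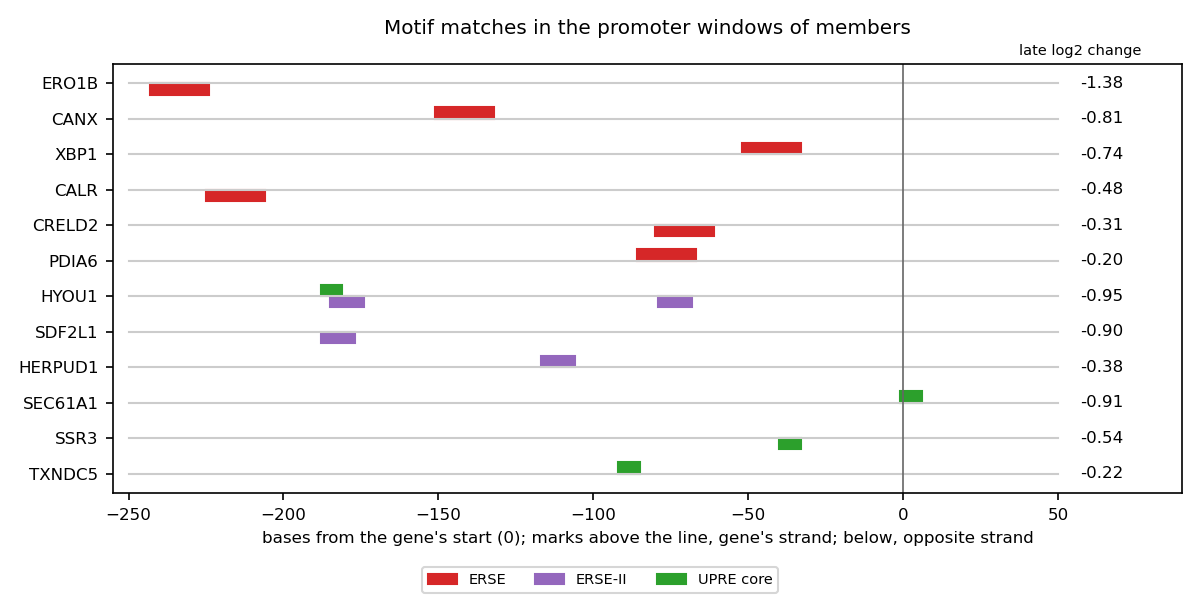
Places of ERSE (red), ERSE-II (purple) and UPRE core (green) matches in the 300-base promoter windows of 12 members, in bases from the gene's start at 0, with marks above the line on the gene's strand and below it on the opposite strand. The log2 change from day 3 to day 6 stands at the right, and the 9 members with an ERSE or ERSE-II run from -1.38 for ERO1B to -0.20 for PDIA6.

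The comparison of day 6 with day 3, the late step, asked what changed as the tissue completed its formation. Of the 33 tested members, 29 fell and 0 rose. The falls covered each role, from the IRE1 gene ERN1 to the Sec61 channel gene SEC61A1, the chaperone genes CANX, CALR and HYOU1, and the oxidase gene ERO1B, which fell most. No member rose at an unadjusted p under 0.05 either, and DESeq2 called 29 falls and 0 rises. Across all 18245 tested genes 23.4% were called lower and 26.4% higher by edgeR's quasi-likelihood test at a Benjamini-Hochberg adjusted p under 0.05. Abundant genes were called lower more often, at 36.4% of the 7622 genes at least as abundant as TXNDC5, the tested member with the fewest counts. The median log2 change was -0.48 over the members and 0.03 over all genes, and all 33 members had a value below 0, from -1.38 to -0.04. In 28 members every day 6 library lay below every day 3 library, as did those of 21.1% of all genes. The 34 members together held 1.28 to 1.33% of all counts on day 3 and 0.962 to 1.07% on day 6.

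The 4 members that did not pass the test in the late step were ATF6, CREB3L2, PPP1R15A and TXNDC5. Scaling by library totals alone, without TMM factors, shifted the median late change over all genes up by 0.18 (log2). Under that scaling 26 members fell and 2 rose, ATF6 by 0.12 (adjusted p = 0.0454) and PPP1R15A by 0.15 (adjusted p = 0.0349), so the direction of these 2 genes depends on the scaling. The calls of CRELD2, OS9 and PDIA6 were lost with it. The shares of all genes given for the late step are with TMM factors and do not apply to this scaling.

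**Figure D2:**
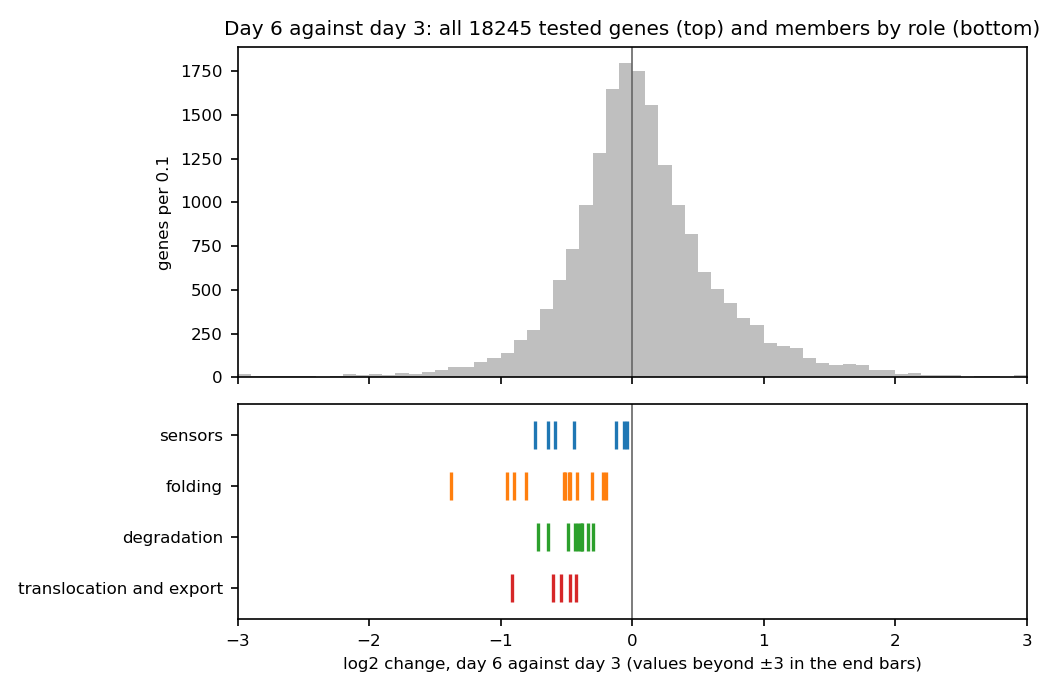
Log2 change from day 3 to day 6 of all 18245 tested genes, as the number of genes per 0.1 on the log2 scale (top), and of the 33 tested members, 1 tick per gene in 4 rows by role (bottom). The genes as a whole centre on a median of 0.03 and the members on -0.48, and no tick lies above 0.

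The comparison of day 3 with day 1, the early step, asked what changed at the start of formation. XBP1 rose most among the members, and ATF6, ERN1, DERL1, SEC61A1 and SEC61B rose with it, by 0.19 to 0.39 on the log2 scale. No member fell. Over all genes 6.88% were called higher and 5.9% lower. At an unadjusted p under 0.05, 13 members rose and 0 fell, and DESeq2 called 7 rises and 0 falls. The 6.88% and 5.9% are for edgeR's adjusted p under 0.05 and do not apply to these counts. The members' median change was 0.10 and that of all genes 0.00, and in 11 members every day 3 library lay above every day 1 library, against 15.2% of all genes. In each of the 6 called members every day 3 library lay above every day 1 library. Their calls, except that of XBP1, could still be lost by leaving out 1 library. Without day 1 replicate 1 only XBP1 and ATF6 were called (2 members), without day 1 replicate 2 only XBP1 (1 member), and without day 3 replicate 2 or day 3 replicate 4 the count was 3.

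From day 1 to day 6, over the whole formation, 30 members fell and 1, ATF6, rose, against 18.7% of all genes called lower and 21.3% called higher. The median change was -0.41 over the members and 0.02 over all genes, and in 29 members every day 6 library lay below every day 1 library, as in 19.7% of all genes. CREB3L2 and TXNDC5 did not pass the test. The early and late steps share the day 3 libraries, so an unusual day 3 would move them in opposite directions. The late step minus the early step was tested as a contrast of its own in edgeR. It subtracts day 3 with double weight, so an unusually high day 3 alone would give low values in it. It was lower in 28 members and higher in 0 (0 at an unadjusted p under 0.05, and 0 by DESeq2), against 17.7% and 17.5% of all genes. The 5 members without a call in that contrast were CREB3L2, PPP1R15A, PDIA6, TXNDC5 and CRELD2.

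**Figure D3:**
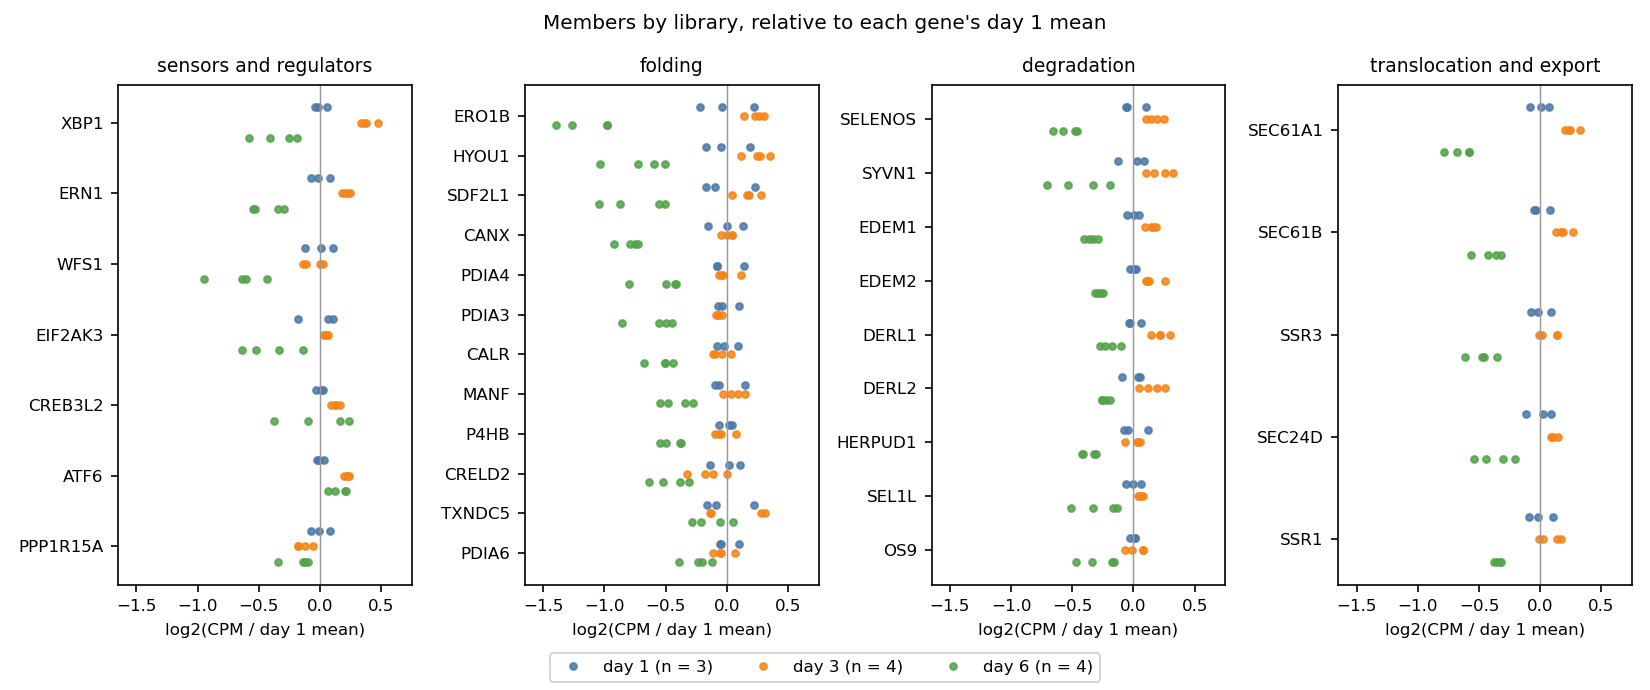
Level of each tested member in each library as log2 of its CPM over that gene's day 1 mean, in 4 panels by role, with 3 libraries for day 1 (blue) and 4 each for day 3 (orange) and day 6 (green). The day 6 points lie to the left of the day 3 points without overlap in 28 of the 33 members, and the exceptions are ATF6, CREB3L2, PPP1R15A, TXNDC5 and CRELD2.

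Among the 7 sensors and regulators, 4 fell in the late step (ERN1, EIF2AK3, XBP1 and WFS1) and 3 rose in the early step (ERN1, ATF6 and XBP1). Of all genes 23.4% were called lower in the late step and 6.88% higher in the early step. Among genes at least as abundant as TXNDC5, 36.4% were called lower late, and these shares stand beside each role below. XBP1, whose spliced form encodes the transcription factor downstream of IRE1, lies at chr22:28794555-28800597 in the deposited table (GRCh38). It measured 231, 227 and 244 CPM on day 1, then 303, 326, 295 and 300.0 CPM on day 3, then 176, 197, 156 and 205 CPM on day 6. All 4 day 3 libraries were above all others and all 4 day 6 libraries below all others, so none of the 3 days overlapped. XBP1 rose by 0.39 in log2 (30.8%, SE 0.0749, adjusted p = 0.0022, edgeR) and then changed by -0.74 (-40%, SE 0.0693, adjusted p = 7.40e-08, edgeR). On day 6 it stood 0.35 log2 below day 1 as a level of 184 ± 21.7 CPM against 234 ± 8.66 CPM (SD, n = 4 and 3).

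ERN1, at chr17:64039080-64130819, encodes the kinase and ribonuclease that splices XBP1. It measured 84.6, 81.2 and 90.3 CPM on day 1, then 99.6, 98.5, 101 and 96.5 CPM on day 3, and 67.4, 58.4, 59.1 and 69.4 CPM on day 6. As with XBP1, day 3 was highest, day 6 lowest and no 2 days overlapped. ERN1 rose by 0.21 (SE 0.0636, adjusted p = 0.0332, edgeR) and fell by 0.64 (SE 0.0592, adjusted p = 6.44e-08, edgeR), a change in level of -35.7%.

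EIF2AK3, at chr2:88556741-88691518, encodes PERK. Its libraries held 43.7, 36.8 and 44.9 CPM on day 1, 43.7, 42.9, 43.4 and 42.8 CPM on day 3, then 33.2, 29.2, 26.9 and 38.0 CPM on day 6. Days 1 and 3 overlapped, and each day 6 library was below each day 3 library, although the highest on day 6 was above the lowest on day 1. The early change of 0.05 did not pass the test (SE 0.0942, adjusted p = 0.807, edgeR) and the late fall of 0.44 did (SE 0.0883, adjusted p = 0.000533, edgeR).

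ATF6, at chr1:161766298-161977574, differed from the other 2 sensors. Its libraries held 66.4, 65.7 and 68.2 CPM on day 1, 76.4, 77.7, 78.1 and 78.7 CPM on day 3, then 69.9, 77.1, 72.9 and 77.4 CPM on day 6. Every later library was above every day 1 library, and days 3 and 6 overlapped. ATF6 rose early by 0.22 (SE 0.052, adjusted p = 0.0089, edgeR), changed by -0.06 late (SE 0.0478, adjusted p = 0.275, edgeR), and was 0.15 higher on day 6 than on day 1 (SE 0.0518, adjusted p = 0.0231, edgeR). That last call was lost without day 1 replicate 1, day 1 replicate 2, day 6 replicate 2 or day 6 replicate 4. On the scale of CPM per kilobase of merged exons, which allows levels of genes to be set side by side, ERN1, EIF2AK3 and ATF6 averaged 7.86, 7.70 and 8.46 on day 1, and 5.85, 5.86 and 9.42 on day 6. The levels of the 3 sensors were thus close on day 1, and on day 6 ATF6 was apart from the other 2. XBP1 was at 77.3 and 60.6 on the same scale.

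WFS1, which encodes wolframin, a membrane protein of the ER, measured 129, 118 and 139 CPM on day 1, 128, 131, 119 and 117 CPM on day 3, then 84.4, 82.6, 66.6 and 95.4 CPM on day 6. Days 1 and 3 overlapped and day 6 lay below both. Its late log2 change was -0.59 (SE 0.0873, adjusted p = 4.85e-05, edgeR). CREB3L2, a membrane-bound transcription factor that, like ATF6, is released by cleavage, had means of 632, 689.7 and 633 CPM over the 3 days in turn, and its day 6 libraries spread from 487 to 747 CPM. PPP1R15A encodes GADD34, the phosphatase subunit that reverses the action of PERK on eIF2α, and it changed by -0.14 early (adjusted p = 0.19) and -0.04 late (adjusted p = 0.636). From day 1 to day 6 it fell by 0.17 (SE 0.0649, adjusted p = 0.0411, edgeR), a call that 10 of 19 alternative settings did not keep.

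Among the 12 folding genes, 11 fell in the late step, beside 23.4% of all genes called lower. None passed the test in the early step, where 2 had an unadjusted p under 0.05 (ERO1B and HYOU1, both higher) and DESeq2 called 0. ERO1B, at chr1:236214681-236282019, encodes an oxidase that recharges protein disulfide isomerases. It measured 47.1, 41.7 and 56.5 CPM on day 1, 53.5, 56.8, 58.3 and 59.7 CPM on day 3, then 20.2, 24.6, 18.4 and 24.6 CPM on day 6. Days 1 and 3 overlapped, and the highest day 6 library was far below the lowest of any earlier day. ERO1B changed by -1.38 in log2 (-61.6%, SE 0.102, adjusted p = 6.34e-08, edgeR), the largest late change of any member.

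HYOU1 encodes GRP170, a large chaperone of the Hsp70 family that also acts as a nucleotide exchange factor. Its libraries held 467, 431 and 552 CPM on day 1, 572, 616, 582 and 523 CPM on day 3, then 319.5, 292, 236 and 341 CPM on day 6. Day 6 lay below both earlier days, which overlapped. HYOU1 changed late by -0.95 (-48.2%, SE 0.104, adjusted p = 4.12e-06, edgeR). SDF2L1, which works in a chaperone complex of the ER lumen, measured 43.1, 45.5 and 57 CPM on day 1, 55.1, 58.8, 54.3 and 49.9 CPM on day 3, then 26.5, 34.2, 23.6 and 33 CPM on day 6. It showed the same order of days, with overlap between days 1 and 3 alone, and fell late by 0.90 (SE 0.12, adjusted p = 5.51e-05, edgeR).

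The lectin chaperones of glycoprotein folding fell from high levels. CANX, the membrane-bound calnexin, averaged 1354 ± 132, 1365 ± 38.0 and 781 ± 46.1 CPM on days 1, 3 and 6 (SD, n = 3, 4 and 4), a late log2 change of -0.81 (-42.8%, SE 0.0673, adjusted p = 1.79e-08, edgeR). CALR, the soluble calreticulin, averaged 1870 ± 113, 1804 ± 82.3 and 1297 ± 88.2 CPM and fell late by 0.48. The isomerase PDIA3, which acts on glycoproteins bound to these lectins, changed by -0.51 late, and the disulfide isomerases PDIA4, P4HB and PDIA6 changed by -0.52, -0.42 and -0.20, all called, although the call of PDIA6 was lost without day 3 replicate 2. Per kilobase of merged exons CALR was the most abundant member on each day, at 689, 665 and 478 CPM per kilobase, followed by P4HB at 329.9, 323 and 242. The ER-resident factors MANF and CRELD2 fell late by 0.47 and 0.31. TXNDC5, another disulfide isomerase, was counted at only 16.9 ± 2.45, 18.1 ± 3.10 and 15.6 ± 1.64 CPM and changed by -0.22 late (adjusted p = 0.136). Of its exon bases in GENCODE release 29, 60.6% also belong to a readthrough gene on the same strand, BLOC1S5-TXNDC5, so its counts are uncertain.

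**Figure D4:**
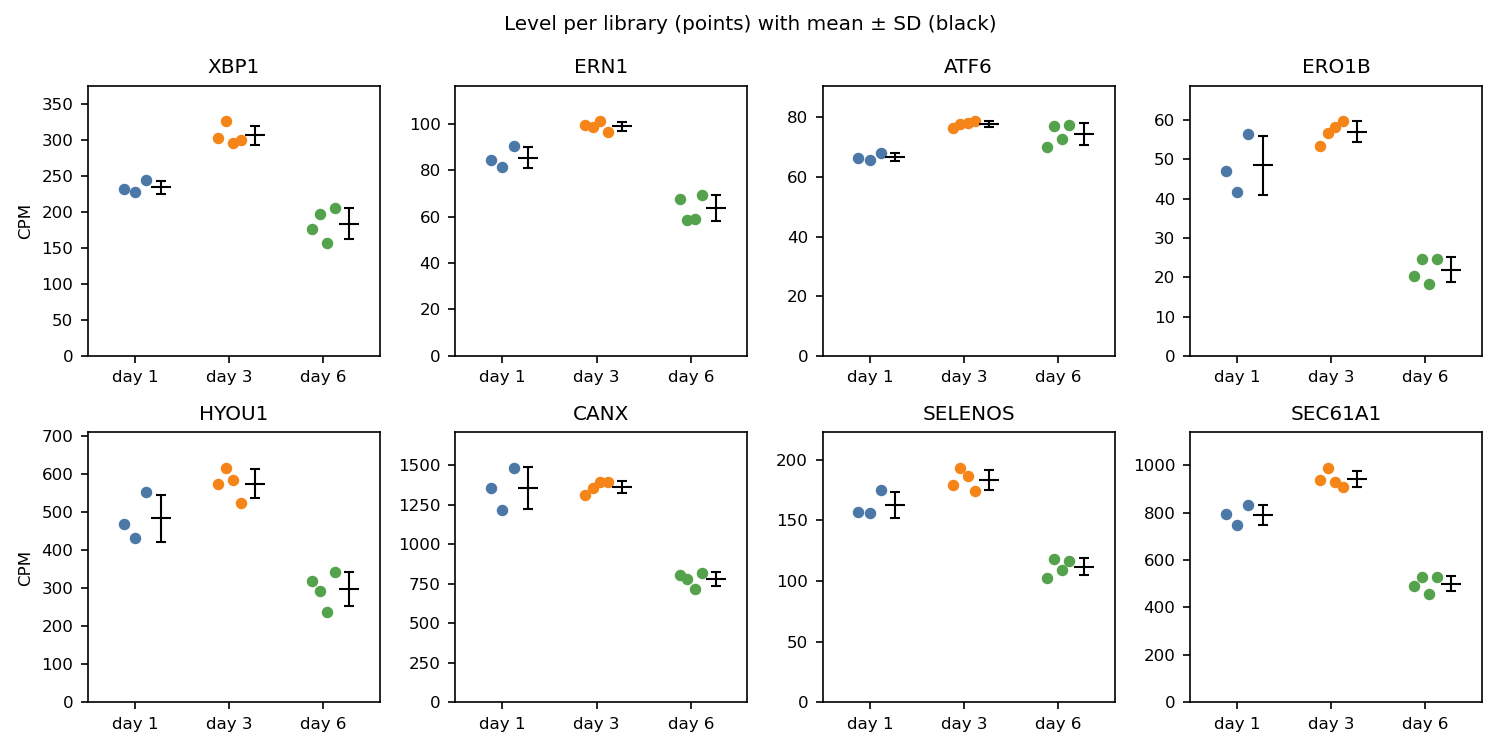
Level in CPM of 8 members in every library of days 1, 3 and 6 (points), with the mean ± SD of each day in black (n = 3, 4 and 4) and each axis starting at 0. XBP1, ERN1 and SEC61A1 are highest on day 3 and lowest on day 6, ATF6 overlaps between days 3 and 6 at means of 77.7 and 74.3 CPM, and ERO1B drops from a mean of 57.1 to 21.9 CPM.

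All 9 tested degradation genes fell in the late step, beside 23.4% of all genes called lower. In each of the 9 every day 6 library lay below every day 3 library, as in 21.1% of all genes. In the early step edgeR called DERL1 alone as higher, beside 6.88% of all genes. At an unadjusted p under 0.05, 6 of the 9 were higher in the early step, and DESeq2 called EDEM1 as well as DERL1. No share of all genes at these settings is given here. SELENOS, a membrane selenoprotein that draws the p97 ATPase to the ER, measured 157, 156 and 175 CPM on day 1, 179, 193, 186 and 174 CPM on day 3, then 103, 118, 109 and 117 CPM on day 6. Days 1 and 3 overlapped by 1 library each, and day 6 lay below both. SELENOS changed late by -0.71 (-39.1%, SE 0.0577, adjusted p = 1.20e-08, edgeR), the most of its role.

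SYVN1 encodes HRD1, the ubiquitin ligase at the centre of this pathway. Its libraries held 155, 138 and 161 CPM on day 1, 189, 181, 170.0 and 162 CPM on day 3, then 121, 104, 92.9 and 132 CPM on day 6. The 3 days did not overlap, but the early change of 0.21 did not pass the test (SE 0.1, adjusted p = 0.186, edgeR), and the late fall of 0.64 did (SE 0.0929, adjusted p = 4.98e-05, edgeR). Of its exon bases, 10.1% are shared with other genes, the ribosomal protein gene FAU on the same strand among them.

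EDEM1, a mannosidase-like protein that marks misfolded glycoproteins, measured 164, 170.4 and 175 CPM on day 1, 181, 187, 189.8 and 193 CPM on day 3, then 132, 128, 139 and 135 CPM on day 6. Its days did not overlap either. It changed by 0.15 early (adjusted p = 0.0713) and fell by 0.49 late (SE 0.048, adjusted p = 1.18e-07, edgeR).

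The derlins are membrane proteins of the channel through which substrates leave the ER. DERL1 measured 83.9, 83.3 and 89.0 CPM on day 1, 94.3, 99.1, 99.0 and 105 CPM on day 3, then 75.6, 72.8, 70.8 and 79.5 CPM on day 6. It followed the order of XBP1, with day 3 highest, day 6 lowest and no overlap, rising by 0.22 (SE 0.0563, adjusted p = 0.0148, edgeR) and falling by 0.41 (SE 0.0521, adjusted p = 2.64e-06, edgeR). DERL2 fell late by 0.39. DERL3 was not tested, with 6, 7 and 18 counts on day 1, 9, 4, 10 and 7 on day 3, and 9, 5, 10 and 5 on day 6. Its days overlapped, and 77% of its exon bases are shared with SMARCB1 on the opposite strand, so even these counts are uncertain. Per kilobase of merged exons on day 3, DERL1, DERL2 and DERL3 stood at 14, 7.96 and 0.0697 CPM per kilobase.

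The other degradation genes fell late by similar amounts. SEL1L, the adaptor of HRD1, changed by -0.33, the lectin gene OS9 by -0.30, HERPUD1, a membrane scaffold, by -0.38, and EDEM2, which starts mannose trimming, by -0.43. In the early step EDEM2 changed by 0.15 without passing the test (adjusted p = 0.0779), and SEL1L, OS9 and HERPUD1 changed by 0.01 to 0.05.

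All 5 translocation and export genes fell in the late step, beside 23.4% of all genes called lower. SEC61A1 and SEC61B rose in the early step, beside 6.88% of all genes called higher. SEC61A1, at chr3:128051641-128071705, encodes the pore of the Sec61 channel. It measured 793, 746 and 832 CPM on day 1, 936, 989, 930.3 and 909 CPM on day 3, then 492, 527, 457 and 527 CPM on day 6. The days did not overlap and the day 6 libraries were all far below day 1. SEC61A1 rose by 0.25 (19.1%, SE 0.0661, adjusted p = 0.0162, edgeR) and then changed by -0.91 (-46.8%, SE 0.0615, adjusted p = 1.51e-09, edgeR), the smallest adjusted p of any member in the late step.

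SEC61B, a small subunit of the same channel, measured 108, 109 and 118 CPM on day 1, 122, 135, 126 and 127 CPM on day 3, then 75.7, 89.4, 83.0 and 87.2 CPM on day 6. Its days were in the same order and did not overlap. It rose by 0.19 (SE 0.0611, adjusted p = 0.0487, edgeR), just within the threshold, and fell by 0.60 (SE 0.0569, adjusted p = 7.66e-08, edgeR). SSR3, a subunit of the translocon-associated protein complex, measured 379, 365 and 409 CPM on day 1, 381, 388, 422 and 423 CPM on day 3, then 279, 301, 251 and 276 CPM on day 6. Days 1 and 3 overlapped and day 6 lay below both, with a late fall of 0.54 (SE 0.0622, adjusted p = 7.83e-07, edgeR). SSR1 of the same complex and SEC24D, a cargo-binding coat protein of vesicles that leave the ER, changed by -0.43 and -0.48.

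**Figure D5:**
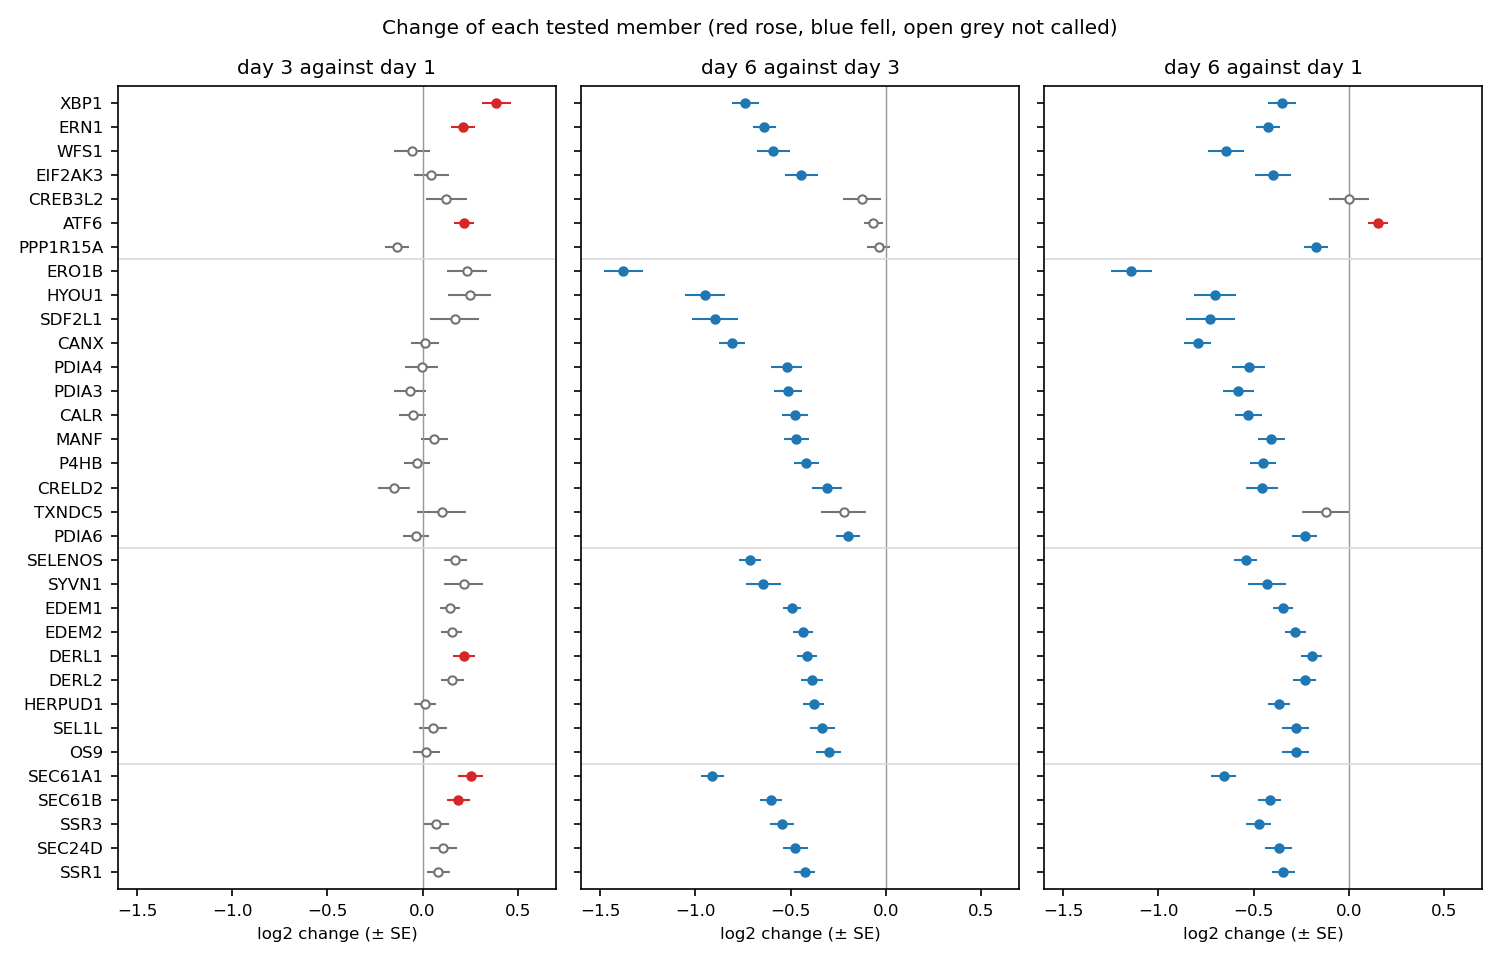
Log2 change ± SE (edgeR) of each tested member from day 1 to 3, from day 3 to 6 and from day 1 to 6, grouped by role and ordered by the late change, with called rises in red, called falls in blue and the rest open grey. The early panel shows 6 rises, the late panel 29 falls and the last panel 30 falls with ATF6 as its 1 rise.

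The members also moved together within a day. Day 1 replicate 3 held the highest level of 31 of the 33 members, while it was the highest of its day for 34.5% of all genes, and day 1 replicate 2 held the lowest of 24 (35.7% of all genes). On day 3, replicate 4 was lowest for 20 members (27.3% of all genes) and replicate 2 highest for 17 (30.2%). On day 6, replicate 3 was lowest for 25 members (31.3% of all genes) and replicate 4 highest for 18 (22.7%). Day 6 replicate 3 also had the highest TMM factor, 1.12. With library totals alone, day 1 replicate 3 was highest for 27 members and replicates 1 and 2 were lowest for 16 each, day 3 replicate 4 was lowest for 15 and replicate 2 highest for 16, and on day 6 replicate 3 was lowest for 19 and replicate 2, with 14, in place of replicate 4, with 12, highest for most. The part of that scaling in the order of the libraries was not tested further.

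In 5 lists of other genes of the same pathways, 138 of 139 genes were tested, and 93 fell and 10 rose in the late step, with a median of -0.24. Over all genes 23.4% were called lower and 26.4% higher in that step, with 36.4% called lower among the genes at least as abundant as TXNDC5. The same shares apply to the late counts of each list below. With library totals alone the split was 51 falls and 29 rises, so these lists lean less to one side under that scaling. In the early step 14 of the 138 rose and 4 fell, with a median of 0.05, beside 6.88% of all genes called higher and 5.9% called lower. With library totals alone 7 rose and 12 fell, the opposite lean, and with TMM factors the rises numbered 6 without day 1 replicate 1, 4 without day 1 replicate 2, 7 without day 3 replicate 4 and 8 without day 3 replicate 2 or day 3 replicate 3. Other ER chaperones and folding enzymes had 22 falls and 4 rises among 33, and the rises numbered 2 with DESeq2, with no filter, with a filter of 1 CPM in 3 libraries and without day 3 replicate 1. DNAJB9, a co-chaperone of the Hsp70 system, changed from 271 ± 14.2 CPM on day 3 to 99.99 ± 10.02 CPM on day 6 (SD, n = 4 and 4), a log2 change of -1.44, and DNAJC3 changed by -0.93. FKBP9, a prolyl isomerase, and TMX3, a disulfide isomerase, rose by 0.43 (adjusted p = 3.17e-06, edgeR) and 0.17 (adjusted p = 0.0479, edgeR). Both were at their lowest mean on day 3. FKBP9 averaged 244, 212 and 286 CPM on days 1, 3 and 6, and TMX3 81.6, 70.4 and 79.4, so its day 6 mean was below day 1.

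Other signalling genes of the response had 9 falls and 1 rise among 16 tested, with 2 rises without day 6 replicate 2 and 3 without day 6 replicate 3. ATF4, the transcription factor whose translation is raised when PERK acts, went from 625 ± 26.2 to 315 ± 22.0 CPM, a log2 change of -0.99. PPP1R15B, a constitutive partner of the eIF2α phosphatase, changed by -0.45. The 1 riser was CREB3L1, a relative of CREB3L2, which went from 142 ± 5.99 to 239 ± 34.9 CPM, a log2 change of 0.75 (SE 0.0813, adjusted p = 1.25e-06, edgeR). Its day 1 mean was 197 CPM.

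Other degradation genes had 17 falls and 3 rises among 29. SELENOK and AUP1 changed by -0.80 and -0.46, and ERLIN2, of a complex that handles the inositol trisphosphate receptor and sterol-regulated proteins, and MAN1B1, a mannosidase, by 0.67 and 0.28. Means on days 1, 3 and 6 were 49.5, 43.5 and 69.4 CPM for ERLIN2 and 146, 128 and 155 CPM for MAN1B1. Other translocation, signal peptidase and glycosylation genes had 22 falls and 2 rises among 33, with SSR2 and MAGT1 at -0.75 and -0.69 and TRAM2 at 0.40. Mean TRAM2 was 134, 126 and 167 CPM on days 1, 3 and 6. Other coat and cargo receptor genes had 23 falls and 0 rises among 27 (0 rises at an unadjusted p under 0.05 and 0 by DESeq2), led by the cargo receptor LMAN1 at -0.75 and the coat gene SEC24A at -0.73.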

How the data were processed

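Raw gene counts were deposited by the authors as 1 table with a column per library, and 0 columns stayed out of use. GRCh38 is the build named per the submitters' processing notes, with DRAGEN, STAR 2.7.11b, Subread featureCounts 2.0.8 and Salmon 1.10.0 as tools whose roles are not given. The annotation release, the strand setting and the treatment of multi-mapped reads are not given in the sources used here, so counts of overlapping genes are uncertain. Per the labels' protocols, RNA was selected on oligo-dT beads and reverse transcribed with random hexamers. A total of 99 rows that name no human gene held at most 2 counts in a library (6.79e-06% of its total) and were left out.

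Genes were kept by filterByExpr of edgeR 4.0.16 (R 4.3.3, minimum count 10, minimum total 15), which left 18245. The test was edgeR's robust quasi-likelihood test with TMM factors and day as a factor over all 11 libraries. P-values were adjusted by Benjamini-Hochberg over all tested genes, with calls under 0.05, and standard errors were derived from the F statistic. The scripts were tested on simulated data. Contrasts were the early step (day 3 over day 1), the late step (day 6 over day 3), day 6 over day 1, and the late change minus the early change. A count of 3, the limit that 0 counts allow, was 0.091 to 0.115 CPM, for counting error only. Alternatives were RLE factors, library totals, DESeq2 1.42.0, other filters, blocks for the replicate number or the column letter, fits of 2 days and leaving out each library. Replicates of a day all differed beyond sampling noise in a chi-square test over genes.

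The members and lists were chosen with earlier results of these data known. Values per library are given for ERN1, EIF2AK3, ATF6 and XBP1, for the 3 members of each role with the largest called late change, and for members called early. Of each list, up to 2 rising and 2 falling genes of at least 5 CPM with the largest called late change are named. Promoter sequences are RefSeq's (GRCh38.p14), exon lengths and overlaps are from GENCODE release 29, and no protein sequences were used here.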

Additional observations from a re-analysis of the deposited data

Results flagged for a closer look

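PPP1R15A on day 6 had 1 library apart from the others. Replicate 1 measured 265 CPM, and the other day 6 libraries measured 309, 307 and 315 CPM. Its gap to the nearest of them was 0.837 of the day's range, above Dixon's 95% critical value for 4 libraries. It was the only such library among 68 groups of a member on day 3 or day 6, and chance alone singles out about 1 in 20 groups.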

How the results depend on the processing

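The 29 late falls numbered 28 to 29 when each library was left out in turn, 29 with RLE factors or DESeq2, and 26 with library totals alone. Of these 29 members, 26 kept their call and direction in all 19 alternatives. The exceptions were CRELD2, OS9 and PDIA6, all lost with library totals, and PDIA6 was also lost with the letter block. Late rises went from 0 to 2 with library totals, where ATF6 rose by 0.12 and PPP1R15A by 0.15.

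The early rises were less stable. Their number went from 6 to 3 with library totals, 3 with the letter block and 10 in a fit of only 2 days, and from 1 to 8 when a library was left out. Only XBP1 was called in all 19 alternatives. Early falls went from 0 to 1 (PPP1R15A) with library totals and in the fit of 2 days. The whole-formation rise of ATF6 was lost with no filter (0) and in the fit of 2 days (0), and the count was 0 to 1 when a library was left out. Whole-formation falls numbered 27 to 30 with a library left out, and 26 with library totals and 26 with the letter block, where DERL1, DERL2, PDIA6 and PPP1R15A lost their calls. In the contrast of the late with the early step, library totals gave 1 rise in place of 0 and 18 falls in place of 28. The cause was not tested for any of these changes.

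Samples that share a replicate number showed no strong shared deviation, with correlations from -0.0226 to 0.103 over 10 pairs. For samples that share a column letter the correlations ran from -0.0833 to 0.0221 over 8 pairs. With so few libraries in a day, correlations near 0 cannot show whether the numbers or letters pair the samples, because a weak shared effect would look alike. With a replicate block 4 members rose in the early step, 29 fell in the late step, 29 fell and 1 rose over the whole formation, and 28 were lower in the late step minus the early step. Too few counts kept DERL3 out of every test with a filter on low counts.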
